A study of Mus musculus with 9 samples.

Results

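Glycolysis from phosphofructokinase to pyruvate kinase was read in mouse cumulus cells through all probe sets annotated to Pfkp, Pfkl, Pfkm, Aldoa, Aldoc, Tpi1, Pgk1, Pgam1, Eno1 and Pkm (also called Pkm2). Of these 10 genes, 9 had at least 1 probe set in the annotation used, with 22 probe sets together out of 45101 on the array, and Eno1 was not analysed here. Aldoa had 5 probe sets, Pfkp, Pfkl, Tpi1 and Pgk1 had 3 each, Aldoc had 2, and Pfkm, Pgam1 and Pkm had 1 each. All 9 genes and 21 of their 22 probe sets passed the filter on dim probe sets, which required at least 3 of the 9 arrays to exceed the 40th percentile of their own array. The exception was Aldoc probe set 1424714_at, which lay between 4.25 and 4.71 (log2 expression) and below that percentile on every array.

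Phosphofructokinase phosphorylates fructose phosphate and commits glucose to glycolysis, and its platelet (Pfkp), liver (Pfkl) and muscle (Pfkm) subunits assemble into tetramers. Aldolase then splits the sugar into 2 triose phosphates, and triosephosphate isomerase, phosphoglycerate kinase, phosphoglycerate mutase, enolase and pyruvate kinase carry these to pyruvate with net production of ATP. Cumulus cells are the granulosa cells that enclose the oocyte in an antral follicle. The mouse oocyte uses glucose poorly and takes up pyruvate that cumulus cells make, and factors secreted by the mouse oocyte are known to raise glycolysis in these cells.

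The samples came from 3 genotypes on a B6/129 background with 3 arrays each. DM females were Bmp15-/-Gdf9+/-, lacking the oocyte growth factor BMP15 and carrying 1 intact copy of the gene for its relative GDF9, Bmp15-/- females lacked BMP15 alone, and wildtype females carried neither allele. All females were 4 to 5 months old and received 5 IU of equine chorionic gonadotropin, which stimulates follicle growth, 48 hours before collection, and the medium held 5 µM milrinone, a phosphodiesterase inhibitor that keeps oocytes in meiotic arrest, so the controls carry both treatments too. Each sample pooled cumulus cells from 75 to 100 complexes of large antral follicles from 3 to 4 mice. The labels name no promoter or cell type to which the alleles are restricted,. RNA amounts per cell and the number of cells of a type cannot be told apart in such bulk samples.

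Values are log2 expression per probe set, with array medians between 5.52 and 5.59. Bmp15 probe set 1420006_at was at 5.05, 5.09 and 5.08 on the DM arrays, at 5.10, 5.08 and 5.10 on the Bmp15-/- arrays, and at 5.10, 9.58 and 8.41 on the wildtype arrays. Bmp15 probe set 1450210_at lay between 3.91 and 4.22 on all arrays. Gdf9, also an oocyte transcript, was at 5.03, 8.12 and 6.56 on the wildtype arrays. Oocyte markers there summed to 847, 2382 and 1031 (linear scale). The library labelled wildtype 1 thus lay at the mutant level of Bmp15, an oocyte transcript, and was the lowest wildtype array in Gdf9 and in the oocyte marker sum. Without it, the counts of lower enzymes given below were 8 in DM against wildtype and 5 in Bmp15-/- against wildtype, and when it was the only wildtype array used they were 8 and 1. In that fit the spread comes from the 2 mutant genotypes alone, and the lone wildtype array is assumed to vary like them. Of 12 cumulus and granulosa markers, the 11 with a probe set all passed the filter, with a median log2 level of 10.22 to 10.40 in DM, 10.33 to 10.44 in Bmp15-/- and 10.40 to 10.61 in wildtype, and Cyp19a1 was not read.

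Except for Pfkm, the measured enzymes of this stretch of glycolysis fell in DM cumulus cells, and most fell in Bmp15-/- cells by less. Against wildtype, 8 of the 9 measured genes were lower in DM (limma, Benjamini-Hochberg adjusted p under 0.05 over 13447 genes), when 18.2% of all genes tested were called lower. In Bmp15-/- 7 of 9 were lower, with 5.78% of all genes called lower, and between DM and Bmp15-/- 8 of 9 were lower in DM, with 1.61% of all genes called lower. No enzyme was called higher in any of the 3 comparisons, in which 9.95%, 3.29% and 1.64% of all genes were called higher. The median change of the 9 genes was -1.51 in DM against wildtype, -0.67 in Bmp15-/- against wildtype and -0.79 in DM against Bmp15-/- (log2), beside medians of -0.06, -0.04 and -0.03 over all genes tested. The 3 comparisons share arrays and are not independent of each other.

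**Figure D1:**
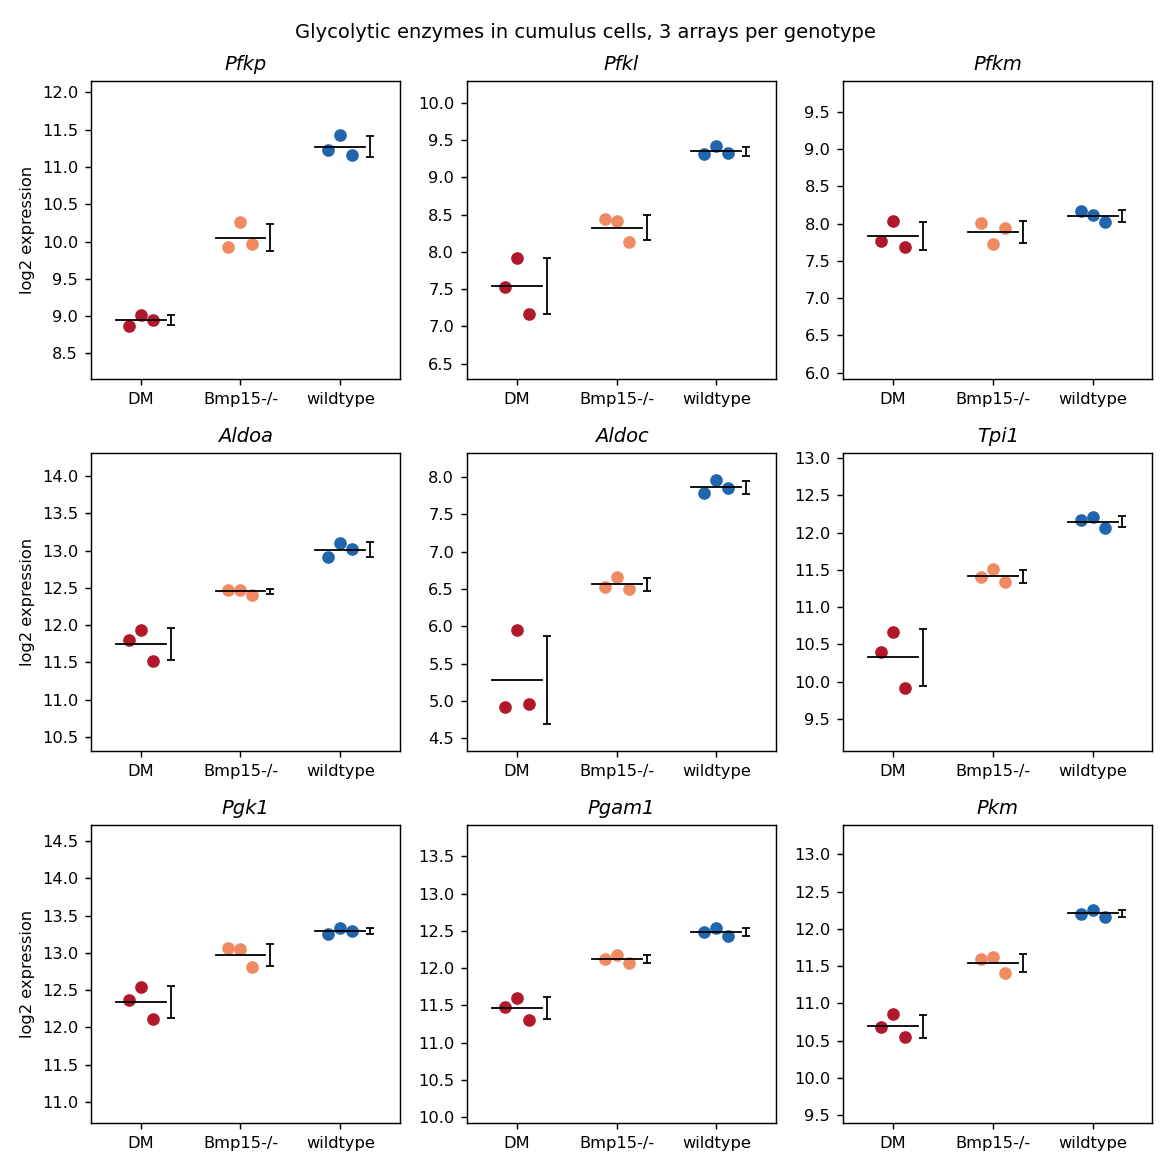
Log2 expression of the 9 measured enzymes (1 panel per gene, its brightest probe set, y axes of equal length) on the 3 arrays of each genotype (x axis: DM, Bmp15-/-, wildtype). Points are arrays, horizontal lines are genotype means and bars are SD over 3 arrays; in every panel the mean is lowest in DM and highest in wildtype, and in the Pfkm panel the DM points overlap those of both other genotypes.

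The promoters of both isoform families are shown because the isoforms within them differed in response. They were read from RefSeq (GRCm38.p6), where all 10 genes had a window of 300 bases around at least 1 start site. Printed are the 250 bases before the most upstream listed start of each gene, 5′ to 3′ on the strand of the gene, and capitals mark every ACGTG or GCGTG on either strand, which is the core bound by hypoxia-inducible factors. The stretches lie at chr13:6648772-6649021 (minus strand) for Pfkp, chr10:78009808-78010057 (minus) for Pfkl, chr15:98092339-98092588 (plus) for Pfkm, chr11:78322823-78323072 (plus) for Aldoc and chr7:126800448-126800697 (minus) for Aldoa.
Pfkp: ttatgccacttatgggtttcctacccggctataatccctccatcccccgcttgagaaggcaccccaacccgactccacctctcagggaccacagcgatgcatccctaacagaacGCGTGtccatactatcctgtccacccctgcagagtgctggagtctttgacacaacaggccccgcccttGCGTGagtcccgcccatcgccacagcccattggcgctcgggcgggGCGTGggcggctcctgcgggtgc
Pfkl: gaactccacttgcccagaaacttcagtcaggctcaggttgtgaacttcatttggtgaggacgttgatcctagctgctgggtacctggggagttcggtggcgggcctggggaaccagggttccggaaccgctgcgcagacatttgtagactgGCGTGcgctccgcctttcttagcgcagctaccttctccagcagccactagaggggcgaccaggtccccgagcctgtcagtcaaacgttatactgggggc
Pfkm: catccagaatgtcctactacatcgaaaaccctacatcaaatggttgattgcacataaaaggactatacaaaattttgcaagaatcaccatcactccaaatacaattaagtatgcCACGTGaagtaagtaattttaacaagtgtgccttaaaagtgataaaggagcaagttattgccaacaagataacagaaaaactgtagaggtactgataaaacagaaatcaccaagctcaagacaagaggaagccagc
Aldoc: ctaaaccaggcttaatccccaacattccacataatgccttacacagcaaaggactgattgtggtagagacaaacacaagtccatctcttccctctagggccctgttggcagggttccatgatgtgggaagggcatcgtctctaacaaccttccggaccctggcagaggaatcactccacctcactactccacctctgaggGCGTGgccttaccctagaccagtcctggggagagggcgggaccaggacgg
Aldoa: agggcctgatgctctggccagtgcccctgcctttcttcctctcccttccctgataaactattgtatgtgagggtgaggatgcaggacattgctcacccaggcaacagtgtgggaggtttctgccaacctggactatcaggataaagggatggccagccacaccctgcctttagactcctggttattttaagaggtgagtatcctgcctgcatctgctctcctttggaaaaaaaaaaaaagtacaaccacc

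The Pfkp stretch held 3 such cores and Pfkl and Aldoc 1 each. In Pfkm the 2 overlapping matches form the palindrome CACGTG, an E-box. Windows at its other listed starts, 15882, 15967 and 19471 bases inside the gene, held 2, 1 and 0 cores. The Aldoa stretch held none, while the windows at both other listed starts of Aldoa held 1 each. For Pfkp the start used lies 289 bases inside the annotated gene, and for Aldoa 547 bases. Over all 19 windows of the 10 genes, 15 held ACGTG or GCGTG, against 43.8% of 32851 windows of the same length. ACGTG stood in 8 of the 19 windows against 19.6% of all windows, GCGTG in 10 against 32.4%, the E-box CACGTG (which contains ACGTG) in 1 against 7.15%, and GGGCGG, the GC box, in 11 against 35.7%. Windows of 1 gene can overlap, and a match describes the letters only.

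Among the phosphofructokinase subunits, Pfkp and Pfkl fell in both mutants and Pfkm did not pass the test in any comparison. Pfkp (chr13:6579874-6649060, probe set 1416069_at) had log2 values of 8.87, 9.01 and 8.95 in DM, 9.93, 10.27 and 9.97 in Bmp15-/-, and 11.23, 11.43 and 11.16 in wildtype. Every DM array lay below every Bmp15-/- array, and every Bmp15-/- array below every wildtype array. Its level was 5.02-fold lower in DM than in wildtype (log2 change -2.33 ± 0.11 SE, adjusted p = 5.22e-06), 2.33-fold lower in Bmp15-/- than in wildtype (-1.22 ± 0.11, adjusted p = 0.000537) and 2.16-fold lower in DM than in Bmp15-/- (-1.11 ± 0.11, adjusted p = 0.00428). Its other probe sets changed less in DM against wildtype. Probe set 1430634_a_at changed by -1.63 ± 0.17, with all 3 DM arrays between 4.68 and 4.94 and below the 40th percentile of their arrays, and 1437759_at changed by -0.76 ± 0.16 (adjusted p = 0.000462 and 0.0103 over 27954 probe sets).

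Pfkl (chr10:77986947-78009807, probe set 1450269_a_at) had values of 7.54, 7.92 and 7.17 in DM, 8.44, 8.41 and 8.13 in Bmp15-/-, and 9.31, 9.42 and 9.33 in wildtype. The genotypes did not overlap, and the DM arrays were spread more widely, over 0.75 log2 units, than the wildtype arrays, over 0.11. Pfkl was 3.51-fold lower in DM than in wildtype (-1.81 ± 0.17 SE, adjusted p = 0.000144), 2.03-fold lower in Bmp15-/- than in wildtype (-1.02 ± 0.17, adjusted p = 0.00849) and 1.72-fold lower in DM than in Bmp15-/- (-0.79 ± 0.17, adjusted p = 0.0425). The call between DM and Bmp15-/- was not firm: over 27954 probe sets its adjusted p was 0.0591, and Pfkl passed there in 1 of the 6 fits that left out 1 array, the one without DM array 2 (adjusted p = 0.00741 in that fit and 0.0559 to 0.141 in the others). Probe set 1439148_a_at changed by -1.76 ± 0.23 in DM against wildtype and by -0.64 ± 0.23 in DM against Bmp15-/-, where its arrays overlapped and it did not pass (adjusted p = 0.184). Probe set 1453541_at, the only one of Pfkl without a suffix for shared transcripts, had values of 5.65, 5.65 and 5.94 in DM, 5.64, 5.93 and 5.54 in Bmp15-/- and 5.66, 5.69 and 5.63 in wildtype. It exceeded the 40th percentile on 9 of 9 arrays and showed no difference that passed the test (0.09 in DM against wildtype, 95% interval -0.19 to 0.37), so the fall of Pfkl rests on its other 2 probe sets.

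Pfkm (chr15:98092589-98132447, probe set 1416780_at) had values of 7.77, 8.04 and 7.68 in DM, 8.01, 7.72 and 7.93 in Bmp15-/-, and 8.18, 8.11 and 8.02 in wildtype. The DM arrays overlapped those of both other genotypes, while the Bmp15-/- arrays lay just below the wildtype arrays. Its change in DM against wildtype was -0.27 (95% interval -0.53 to -0.01, adjusted p = 0.112), which leaves room for a fall of up to 0.53 log2 units. It was -0.21 in Bmp15-/- against wildtype (interval -0.48 to 0.05, adjusted p = 0.274) and -0.06 in DM against Bmp15-/- (interval -0.32 to 0.20, adjusted p = 0.828). Without DM array 2, Pfkm passed in DM against wildtype (-0.38, adjusted p = 0.0295).

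The subunits were then compared within each array, as the log2 ratio of 2 probe sets, because their absolute levels cannot be set against each other. Such a ratio shows unequal change of the 2 probe sets, and its size depends on which probe set stands for each gene. The Pfkp over Pfkm ratio was 1.11, 0.97 and 1.26 in DM, 1.92, 2.54 and 2.03 in Bmp15-/-, and 3.06, 3.32 and 3.13 in wildtype. Its difference in DM against wildtype was -2.06 log2 units, and the genotypes differed by an exact permutation test over the 9 arrays (adjusted p = 0.00476 over 4 pairs of isoforms; p = 0.00357 before adjustment is the smallest these arrays can give). The Pfkl over Pfkm ratio was -0.23, -0.12 and -0.52 in DM, 0.43, 0.69 and 0.20 in Bmp15-/-, and 1.13, 1.31 and 1.30 in wildtype, a difference of -1.54 between DM and wildtype (exact permutation, adjusted p = 0.00476). In both ratios with Pfkm the 3 genotypes did not overlap. With the mean of all probe sets of each gene, these differences between DM and wildtype were smaller, at -1.30 and -0.89 (exact permutation, adjusted p = 0.00714 for each).

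The Pfkp over Pfkl ratio differed far less, at 1.34, 1.09 and 1.78 in DM, 1.49, 1.85 and 1.84 in Bmp15-/-, and 1.92, 2.01 and 1.83 in wildtype. All DM arrays lay below the wildtype arrays, and DM array 3 lay within the range of the Bmp15-/- arrays. The difference between DM and wildtype was -0.52, with an exact permutation adjusted p of 0.0464 over the 3 genotypes. Averaging all probe sets of each gene gave -0.41 and an adjusted p of 0.129 by the same exact test, so this difference depended on the choice of probe set. Between any 2 genotypes the exact test of 3 against 3 arrays cannot go below p = 0.1.

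**Figure D2:**
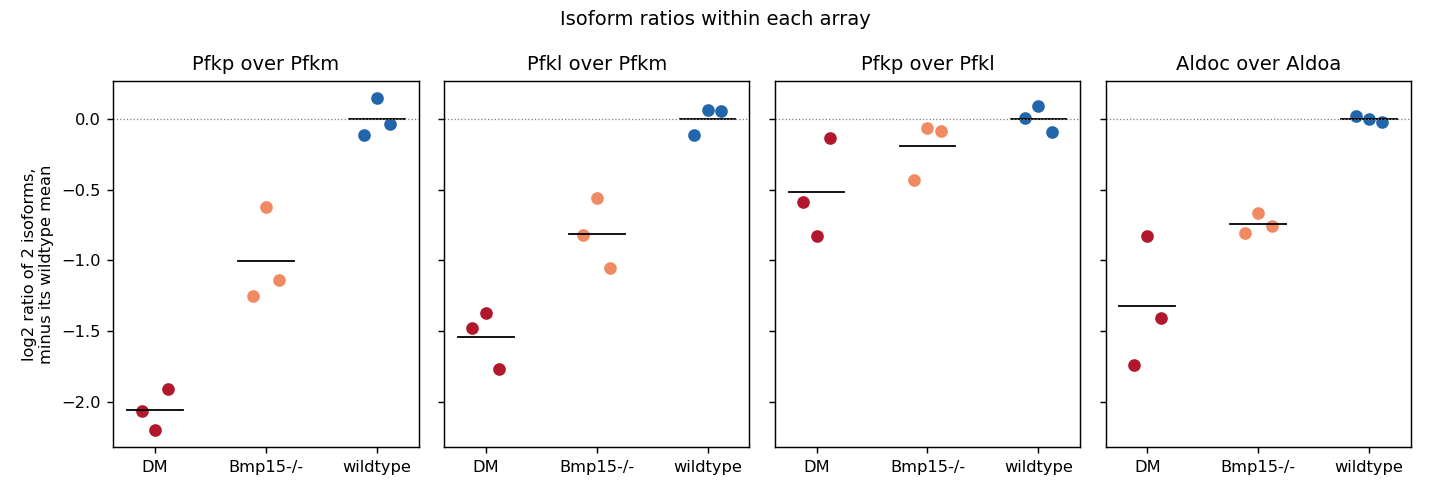
Log2 ratio of 2 isoforms within an array, minus the wildtype mean of that ratio (y axis, 0 dotted), for 4 pairs of isoforms (panels) and 3 genotypes (x axis: DM, Bmp15-/-, wildtype). Points are arrays and lines are genotype means; the 3 genotypes are separate in both ratios over Pfkm and in Aldoc over Aldoa (DM against wildtype -2.06, -1.54 and -1.32), and lie closer together in Pfkp over Pfkl (-0.52).

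Both aldolases fell, and the brain-type isozyme Aldoc fell further than the widely expressed Aldoa. Aldoc (chr11:78323073-78327781, probe set 1451461_a_at) had values of 4.92, 5.96 and 4.96 in DM, 6.52, 6.66 and 6.50 in Bmp15-/-, and 7.79, 7.96 and 7.85 in wildtype. The genotypes did not overlap, and DM arrays 1 and 3 lay below the 40th percentile of their arrays (5.02 and 5.05), so the size of the fall rests on dim values there. Aldoc was 6.01-fold lower in DM than in wildtype (-2.59 ± 0.24 SE, adjusted p = 0.000117), 2.47-fold lower in Bmp15-/- than in wildtype (-1.30 ± 0.24, adjusted p = 0.0116) and 2.44-fold lower in DM than in Bmp15-/- (-1.28 ± 0.24, adjusted p = 0.0235).

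Aldoa (chr7:126795234-126800994, probe set 1434799_x_at) had values of 11.80, 11.93 and 11.51 in DM, 12.47, 12.47 and 12.41 in Bmp15-/-, and 12.91, 13.11 and 13.02 in wildtype. It was 2.40-fold lower in DM than in wildtype (-1.26 ± 0.11 SE, adjusted p = 0.000109), 1.48-fold lower in Bmp15-/- than in wildtype (-0.56 ± 0.11, adjusted p = 0.0180) and 1.63-fold lower in DM than in Bmp15-/- (-0.70 ± 0.11, adjusted p = 0.0139). The genotypes did not overlap in this probe set or in 3 others, which changed by -1.18 to -1.59 in DM against wildtype. The fifth, 1447734_x_at, had values of 9.41, 9.41 and 9.13 in DM, 9.28, 9.54 and 9.76 in Bmp15-/- and 9.45, 9.23 and 9.30 in wildtype, and its change of -0.01 in DM against wildtype (interval -0.32 to 0.30) did not pass the test. All 5 carry the suffix for probes that can bind other transcripts. Probe set 1416921_x_at had the same value, 12.21, on all 3 Bmp15-/- arrays, a tie also found within a genotype in 1.80% of all probe sets, so its spread there was 0.

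The Aldoc over Aldoa ratio was -6.88, -5.97 and -6.55 in DM, -5.95, -5.81 and -5.90 in Bmp15-/-, and -5.12, -5.15 and -5.17 in wildtype. All DM arrays lay below the Bmp15-/- arrays, DM array 2 by the narrowest margin, and all mutant arrays below wildtype. The difference in DM against wildtype was -1.32 log2 units (exact permutation over 3 genotypes, adjusted p = 0.00476). With the mean of all probe sets it was -0.34 (exact test, adjusted p = 0.0905), a setting that includes the Aldoc probe set that lay below the filter everywhere. With the mean of those that passed the filter, chosen after seeing the data, it was -1.53 (exact test, adjusted p = 0.00476).

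The remaining enzymes, which have no second isoform in the list, fell in DM against wildtype by amounts between the changes of Aldoc and Pfkm. Tpi1 (triosephosphate isomerase, which interconverts the triose phosphates; chr6:124810586-124814158, probe set 1435659_a_at) had values of 10.40, 10.67 and 9.92 in DM, 11.40, 11.51 and 11.33 in Bmp15-/-, and 12.17, 12.20 and 12.06 in wildtype. It was 3.52-fold lower in DM than in wildtype (-1.82 ± 0.16 SE, adjusted p = 0.000115), 1.66-fold lower in Bmp15-/- than in wildtype (-0.73 ± 0.16, adjusted p = 0.0265) and 2.12-fold lower in DM than in Bmp15-/- (-1.09 ± 0.16, adjusted p = 0.0111). Its 3 probe sets agreed closely, with changes of -1.64 to -1.82 in DM against wildtype.

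Pgk1 (phosphoglycerate kinase, the first step that yields ATP; chrX:106187100-106203699, probe set 1417864_at) had values of 12.37, 12.54 and 12.11 in DM, 13.06, 13.06 and 12.81 in Bmp15-/-, and 13.26, 13.33 and 13.29 in wildtype. It was 1.94-fold lower in DM than in wildtype (-0.96 ± 0.12 SE, adjusted p = 0.000606) and 1.55-fold lower in DM than in Bmp15-/- (-0.64 ± 0.12, adjusted p = 0.0264). Its difference of -0.32 in Bmp15-/- against wildtype (95% interval -0.59 to -0.05) did not pass the test (adjusted p = 0.128), although all 3 Bmp15-/- arrays lay below the wildtype arrays. The other 2 probe sets of Pgk1 gave -0.33 and -0.39 in that comparison and did not pass either.

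Pgam1 (phosphoglycerate mutase; chr19:41911871-41918665, probe set 1426554_a_at) had values of 11.47, 11.60 and 11.31 in DM, 12.13, 12.17 and 12.06 in Bmp15-/-, and 12.49, 12.54 and 12.43 in wildtype. It was 2.03-fold lower in DM than in wildtype (-1.02 ± 0.09 SE, adjusted p = 0.000117), 1.29-fold lower in Bmp15-/- than in wildtype (-0.36 ± 0.09, adjusted p = 0.0409) and 1.58-fold lower in DM than in Bmp15-/- (-0.66 ± 0.09, adjusted p = 0.00912). With adjustment over 27954 probe sets in place of genes, the Bmp15-/- difference had an adjusted p of 0.0552.

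Pkm (pyruvate kinase of muscle type, whose alternative exons give the M1 and M2 enzymes that this probe set does not separate; chr9:59656576-59679372, probe set 1417308_at) had values of 10.68, 10.85 and 10.55 in DM, 11.59, 11.63 and 11.41 in Bmp15-/-, and 12.20, 12.26 and 12.16 in wildtype. The genotypes were separate for Tpi1, Pgam1 and Pkm alike. Pkm was 2.85-fold lower in DM than in wildtype (-1.51 ± 0.10 SE, adjusted p = 3.76e-05), 1.59-fold lower in Bmp15-/- than in wildtype (-0.67 ± 0.10, adjusted p = 0.00614) and 1.80-fold lower in DM than in Bmp15-/- (-0.85 ± 0.10, adjusted p = 0.00662).

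**Figure D3:**
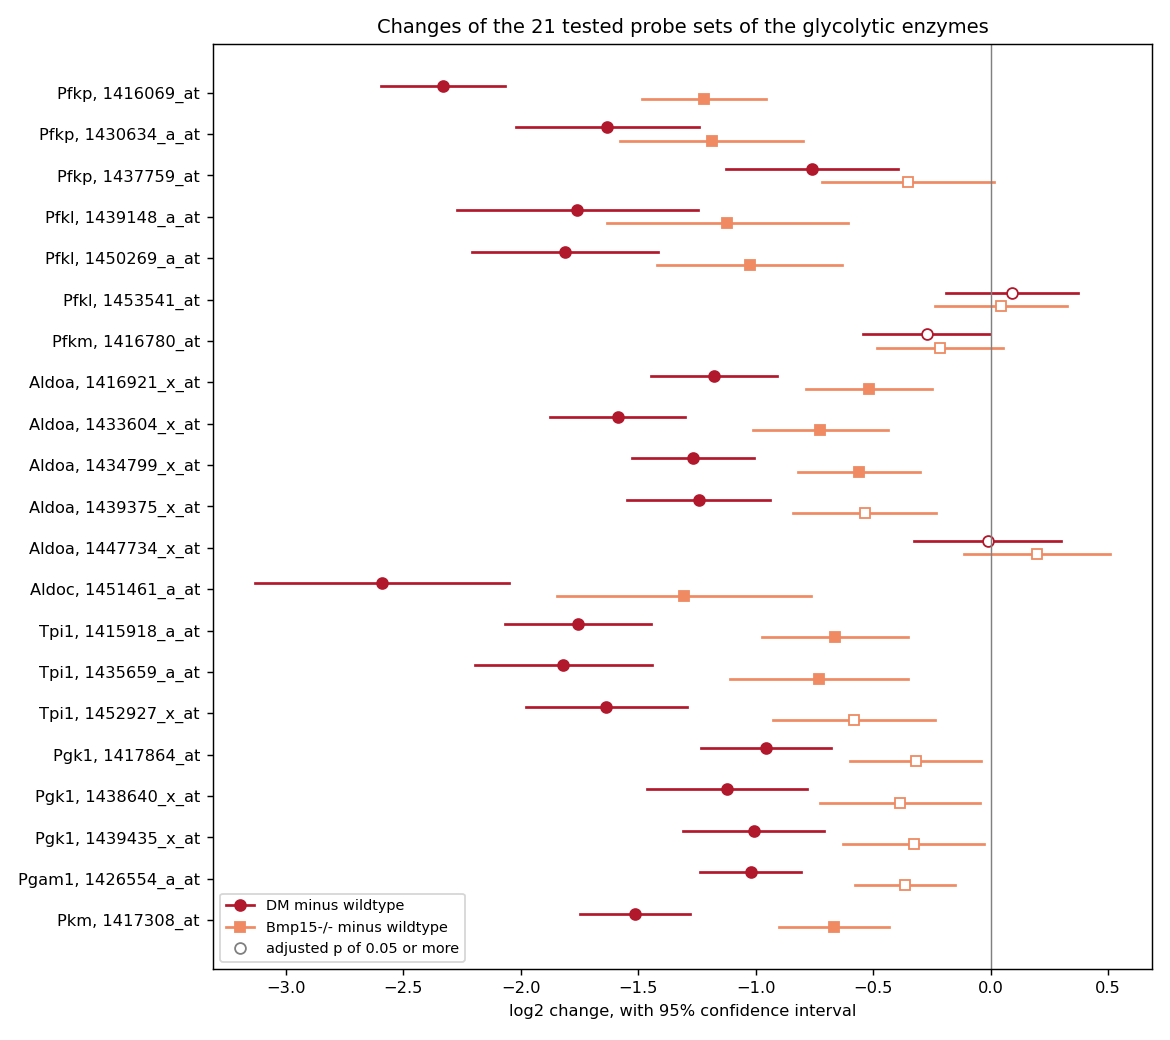
Log2 change (x axis) of each of the 21 tested probe sets (rows) in DM minus wildtype (circles) and Bmp15-/- minus wildtype (squares), with 95% confidence intervals and open symbols at an adjusted p of 0.05 or more over 27954 probe sets. The 18 filled circles all lie left of 0, and the 3 open circles are Pfkm, Pfkl 1453541_at (0.09) and Aldoa 1447734_x_at (-0.01).

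Read over all probe sets in place of 1 per gene, 18 of 21 were lower in DM against wildtype, with 16.2% of all probe sets called lower, 11 of 21 in Bmp15-/- against wildtype, with 4.27%, and 14 of 21 in DM against Bmp15-/-, with 0.909%. The ordering of arrays gave a like count for the genes. All 3 DM arrays lay below all 3 wildtype arrays for 8 of 9 genes, an order found in 27.4% of all genes tested. All 3 Bmp15-/- arrays lay below the wildtype arrays for 9 of 9, with 23.4% of all genes, and all 3 DM arrays below the Bmp15-/- arrays for 8 of 9, with 12.5%. The order of arrays within a genotype was also alike across the enzymes. DM array 2 was the highest DM array for 9 of 9 genes and DM array 3 the lowest for 7. Wildtype array 2 was the highest wildtype array for 8, and Bmp15-/- array 3 the lowest of its genotype for 7. Bmp15-/- array 2 was the highest of its genotype for 5 genes, and wildtype array 3 the lowest of its genotype for 5. The share of all genes with such orders was not counted, so they are not shown to be particular to the enzymes. DM array 2 also had the lowest array median (5.52).

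**Figure D4:**
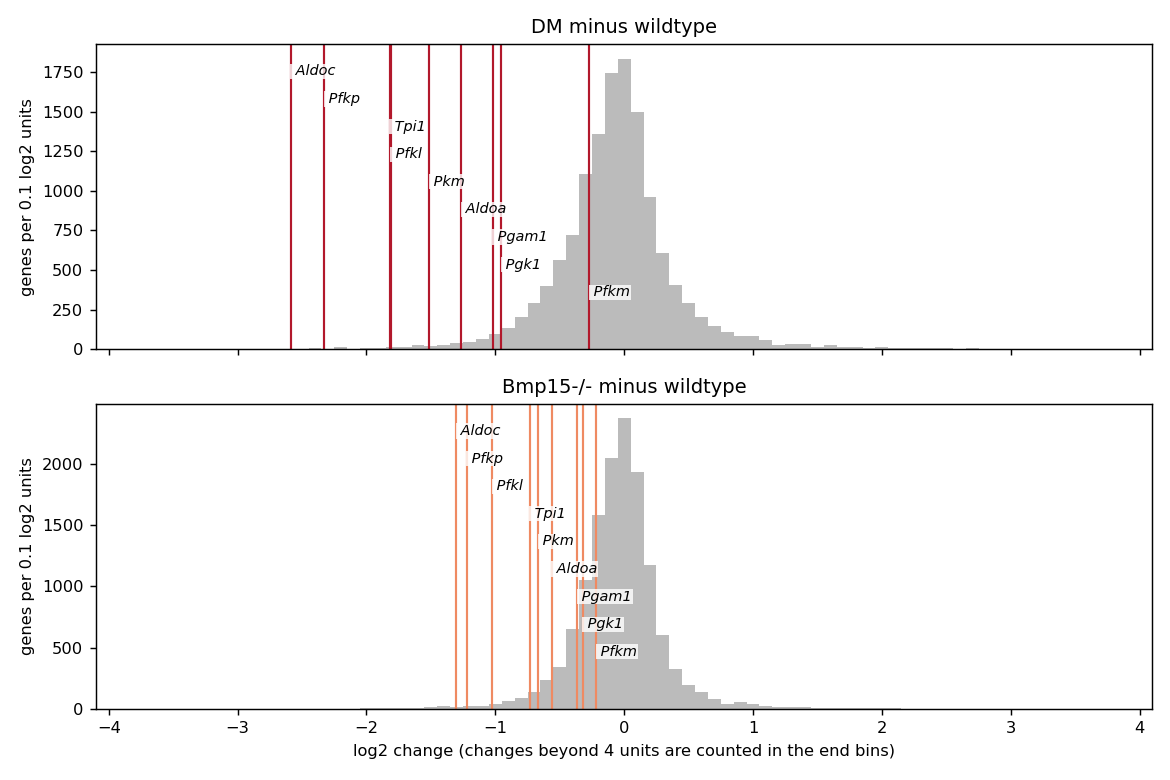
Histograms of the log2 change of all 13447 genes tested (x axis; y axis: genes per bin) in DM minus wildtype (top) and Bmp15-/- minus wildtype (bottom), with a vertical line for each of the 9 enzymes. The enzymes run from -2.59 (Aldoc) to -0.27 (Pfkm) in the top panel and from -1.30 to -0.21 in the bottom panel, beside medians of all genes of -0.06 and -0.04.

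Calls on the smaller differences were often lost when 1 array was left out. In DM against wildtype the 8 genes passed in each of the 6 fits that left out 1 array. In Bmp15-/- against wildtype 4 genes (Pfkp, Pfkl, Aldoc and Pkm) passed in each of 6 such fits. The count was 5 without wildtype array 1 or Bmp15-/- array 1 and 4 without any 1 of the other arrays. Tpi1 and Pgam1 passed in 0 of these 6 fits and Aldoa in 2, while the median change stayed between -0.71 and -0.60. In DM against Bmp15-/- 3 genes (Pfkp, Pgam1 and Pkm) passed in each fit. The count there was 5 without DM array 1 or 3, 4 without Bmp15-/- array 1 and 3 without Bmp15-/- array 2.

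RNA integrity and other cell types were read beside these results. The difference between 3' and 5' probe sets of Gapdh, which grows as RNA is shortened or amplified from its 3' end, was 0.79 to 0.95 in DM, 0.66 to 0.73 in Bmp15-/- and 0.52 to 0.59 in wildtype (log2) and so moved with genotype, whereas that of actin was 1.85 to 2.12 in DM, 1.85 to 1.92 in Bmp15-/- and 1.87 to 1.90 in wildtype. With the Gapdh difference as a covariate, the median change of the enzymes was -1.82 in DM against wildtype and 8 were lower. The Gapdh difference did not overlap between genotypes and comes from a glycolytic gene, so that fit cannot tell RNA quality from genotype. Among 10 theca and stroma markers, the 9 with a probe set summed to 967 to 1256 in DM, 728 to 787 in Bmp15-/- and 564 to 688 in wildtype (linear scale), and 4 of them (Cyp17a1, Col1a2, Dcn and Lum) were dim. The brightest markers weigh most in such a sum. Their median log2 level averaged 5.16 in DM, 5.20 in Bmp15-/- and 5.13 in wildtype. Col1a1, Pdgfra and Acta2 were higher and Pdgfrb lower in DM against wildtype. The 7 surface epithelium markers summed to 968 to 1000 in DM, 849 to 1079 in Bmp15-/- and 639 to 719 in wildtype, with Krt19 and Msln dim, and the 2 measured of 5 erythroid markers to 45.8 to 58.0 in DM, 50.7 to 96.7 in Bmp15-/- and 170.0 to 298.5 in wildtype, with Hba-a1 dim. The 11 measured cumulus and granulosa markers summed to 27253 to 35412 in DM, 36519 to 37376 in Bmp15-/- and 37835 to 39356 in wildtype. In DM against wildtype 4 of them (Foxl2, Inhba, Inhbb and Npr2) were lower and 3 higher (background 18.2% lower and 9.95% higher). Oocyte marker sums were 581 to 985 in DM, 654 to 2420 in Bmp15-/- and 847 to 2382 in wildtype, highest on Bmp15-/- array 2 and wildtype array 2. Without these 2 arrays, a setting chosen after seeing the data, 8 enzymes were lower in DM against wildtype, 1 in Bmp15-/- against wildtype and 1 in DM against Bmp15-/-, while the median changes were -1.49, -0.69 and -0.74. The part of these marker and RNA differences in the fall of the enzymes was not tested.

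Regulators of phosphofructokinase and the enzymes on either side of this stretch were read from lists of genes of glucose metabolism. Pfkfb3, which makes the fructose bisphosphate that activates phosphofructokinase, had values of 8.78, 8.50 and 8.64 in DM, 9.81, 9.75 and 9.60 in Bmp15-/-, and 10.03, 10.29 and 10.70 in wildtype. The genotypes were separate, with changes of -1.70 ± 0.16 SE in DM against wildtype (adjusted p = 0.000133) and -0.62 ± 0.16 in Bmp15-/- against wildtype (adjusted p = 0.0413). Tigar, a phosphatase that removes that activator, was also lower in DM (-0.56 ± 0.10), and Pfkfb2 and Pfkfb4 did not pass in DM (-0.09 and 0.03). Thus 2 of the 4 regulators tested were lower in DM and 1 in Bmp15-/-, when 18.2% and 5.78% of all genes tested were called lower.

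A further list held genes of lower glycolysis or with the name of 1 of its enzymes. Of 7 tested, 4 (Gapdh, Gapdhs, Bpgm and Pgam5) were lower in DM and none passed in Bmp15-/- (background 18.2% and 5.78% lower). They included Gapdh, the step between Tpi1 and Pgk1, which had values of 12.96, 13.05 and 12.67 in DM, 13.32, 13.27 and 13.27 in Bmp15-/-, and 13.55, 13.55 and 13.51 in wildtype. Its change of -0.64 ± 0.10 SE in DM (adjusted p = 0.00193) was smaller in size than those of the enzymes beside it, Tpi1 at -1.82 and Pgk1 at -0.96, a difference between genes that was not tested. Gapdh was read here from a 3' control probe set, the one used for RNA integrity above. The 3' minus 5' difference averaged 0.87 in DM and 0.56 in wildtype, so the 5' probe set, which was not tested, fell further. The size of the Gapdh change therefore depends on the probe set. The 5' probe set was not set against Tpi1 or Pgk1. The muscle and liver isozymes Pgam2, Eno3 and Pklr did not pass in DM (-0.18, -0.27 and -0.09). Bpgm, which makes bisphosphoglycerate from a glycolytic intermediate, was lower in DM (-0.70 ± 0.17).

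At the entry of glucose, 2 of 6 genes tested were lower in each mutant (background 18.2% lower in DM and 5.78% in Bmp15-/-). Hk2, a hexokinase, was lower in DM (-1.26 ± 0.14 SE, adjusted p = 0.00035), and so was the glucose transporter Slc2a1 (-0.63 ± 0.10, adjusted p = 0.00229), while their changes of -0.26 and -0.15 in Bmp15-/- did not pass. In Bmp15-/- the hexokinase Hk1 (-0.61 ± 0.11) and the transporter Slc2a3 (-1.36 ± 0.36) were lower, and their changes of -0.29 and -1.04 in DM did not pass.

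Beyond pyruvate kinase the genes went both ways. Of 12 tested genes of lactate and pyruvate handling, 5 were lower and 3 higher in DM (background 18.2% lower and 9.95% higher). In Bmp15-/- 3 were lower and 3 higher (background 5.78% lower and 3.29% higher). Lactate dehydrogenase Ldha had values of 10.83, 11.12 and 10.93 in DM, 11.81, 11.88 and 11.68 in Bmp15-/- and 12.74, 12.82 and 12.70 in wildtype, a change of -1.79 ± 0.10 SE in DM and -0.96 ± 0.10 in Bmp15-/- (adjusted p = 1.11e-05 and 0.00098). The other subunit, Ldhb, was higher in DM (1.31 ± 0.17). The lactate exporter Slc16a3 was lower in DM (-3.04 ± 0.32), as was Pdk1 (-1.45 ± 0.11), a kinase that inhibits pyruvate dehydrogenase. Its relative Pdk4 was higher in DM (0.98 ± 0.09) and in Bmp15-/- (0.86 ± 0.09), and so was Pdha1, a subunit of pyruvate dehydrogenase (0.76 ± 0.13 in DM and 0.53 ± 0.13 in Bmp15-/-).

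Among genes of the reverse, gluconeogenic steps, Fbp1 and G6pc3 were lower in DM (-0.98 ± 0.23 and -0.36 ± 0.11) and Pck2, which makes phosphoenolpyruvate in mitochondria, was higher (0.93 ± 0.08), out of 3 tested (background 18.2% lower and 9.95% higher). In the pentose phosphate pathway, 3 of 7 tested genes (H6pd, Rpia and Taldo1) were lower in DM, by -0.42 to -0.63 (background 18.2% lower), and none passed in Bmp15-/- (background 5.78%). Of 6 genes of the side branches to glycerol phosphate and serine, Psph alone passed in DM (-0.35 ± 0.09), near the background of 18.2% lower. The median change of these last 2 lists in DM, -0.31 and -0.15, compares with -1.51 for the enzymes from phosphofructokinase to pyruvate kinase, and no test was made of that difference.

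**Figure D5:**
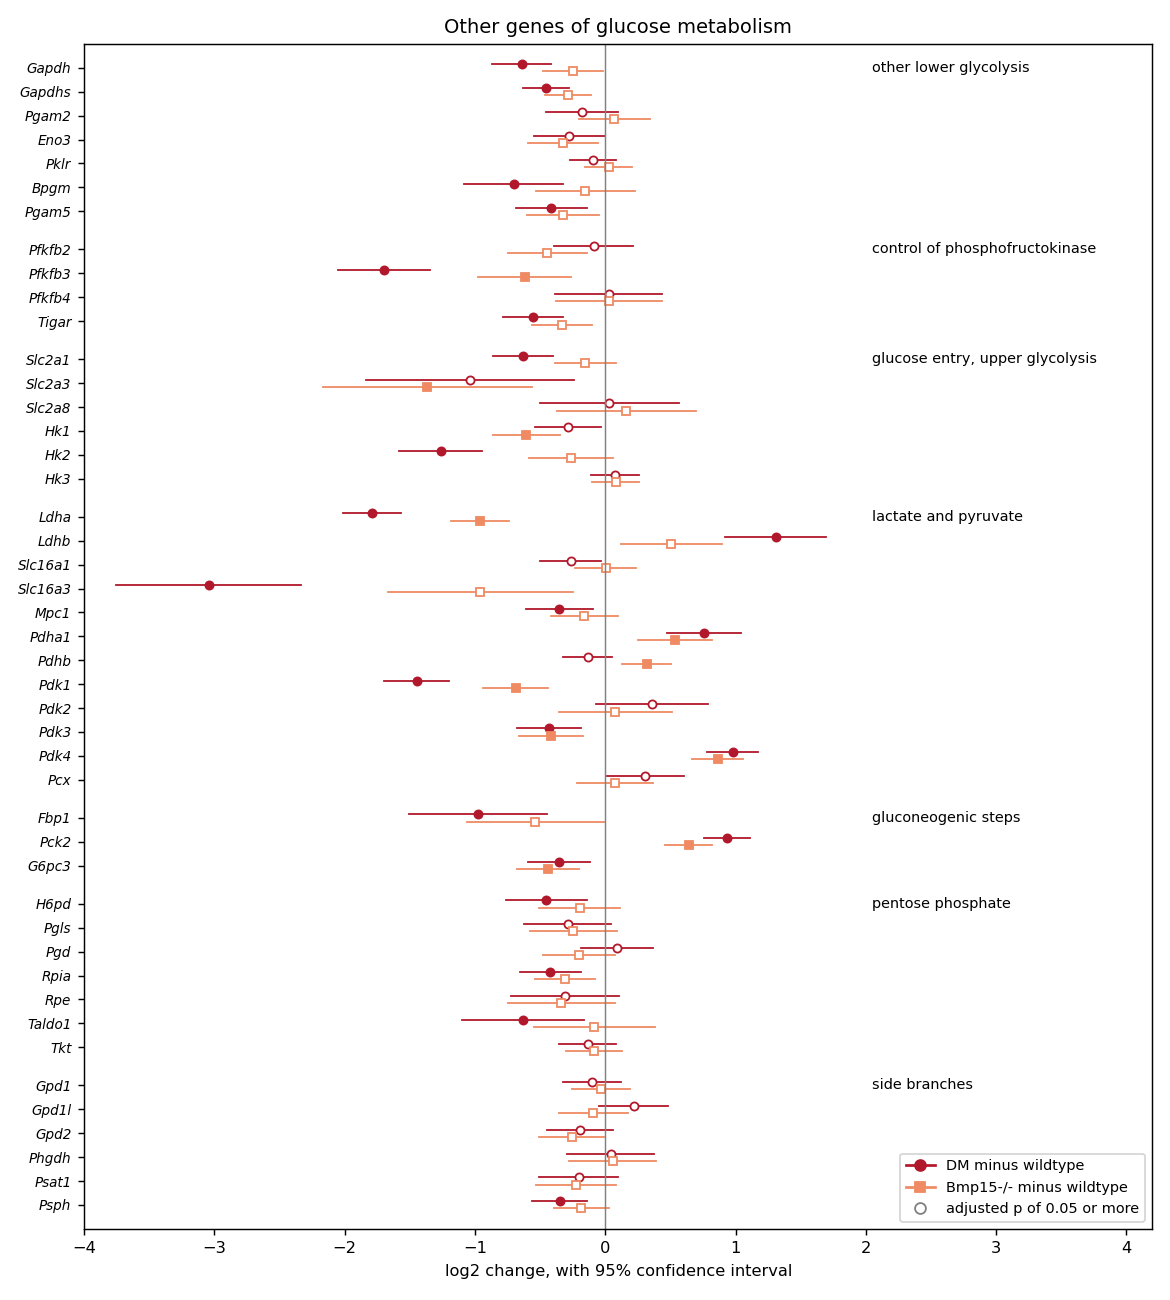
Log2 change (x axis) with 95% confidence intervals of 45 other tested genes from the lists on glucose metabolism (rows, grouped by list) in DM minus wildtype (circles) and Bmp15-/- minus wildtype (squares). Open symbols did not pass the test over 13447 genes. Slc16a3 (-3.04), Ldha (-1.79) and Pfkfb3 (-1.70) lie far to the left, and Ldhb (1.31), Pdk4 (0.98), Pck2 (0.93) and Pdha1 (0.76) to the right.

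Finally, the genes whose profiles over the 9 arrays were most like the mean profile of the enzymes were found by Pearson correlation, as a description. The 9 points are 3 genotypes of 3 arrays each and share their normalization. The highest r among all other genes tested belonged to Mif, a cytokine (0.998), Bnip3, a mitochondrial protein of cell death and mitophagy (0.998), Pole2, a subunit of DNA polymerase epsilon (0.995), Pdk1 (0.995) and the oestrogen receptor Esr1 (0.993). Bnip3 had values of 9.74, 10.18 and 9.58 in DM, 11.02, 11.14 and 10.83 in Bmp15-/- and 11.87, 11.90 and 11.84 in wildtype. The lowest r belonged to Sulf1, a sulfatase of heparan sulfate (-0.992), Mlxipl, a glucose-responsive transcription factor also called ChREBP (-0.991), Aff1 (-0.989), Fam126a (-0.986) and Arap2 (-0.985). Mlxipl exceeded the 40th percentile of its array only in DM, with values between 4.98 and 5.23 in DM, at 4.83 on the Bmp15-/- arrays and between 4.51 and 4.53 in wildtype. Within the set, the r of each enzyme with the mean of the others was 0.973 to 0.995 for 8 genes and 0.719 for Pfkm.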

How the data were processed

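Cumulus cell RNA of 9 samples was amplified in 2 rounds from 10 ng and hybridised to Affymetrix arrays, per the labels' protocols. The authors deposited log2 expression values per probe set, and RMA and affy are named in the submitters' processing notes. No version of either tool is given. The number of arrays, 3 per genotype, limits the precision. Each of 18194 genes was represented by the probe set with the highest mean over 9 arrays among those with 1 gene in the platform annotation, with symbols updated through RefSeq. A gene was tested if at least 3 arrays exceeded the 40th percentile of their own array (13447 genes). All arrays entered 1 fit (limma 3.58.1, R 4.3.3, genotype only, 6 residual degrees of freedom), with 2-sided Benjamini-Hochberg adjusted p under 0.05. A second fit took 27954 probe sets. Suffixes _a, _s and _x mark probe sets that may bind several transcripts. Isoform ratios were tested by exact permutation over 1680 arrangements of 9 arrays. The script was tested on simulated data. Named genes are all members, the pathway lists, and the 5 highest and 5 lowest correlations. Members and lists were chosen with earlier results of these data known. Alternatives covered the filter, probe set choice, scaling, model and left-out arrays. Replicate numbers paired arrays across genotypes weakly at most (r from -0.08 to 0.26).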

Additional observations from a re-analysis of the deposited data

How the results depend on the processing

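In DM against wildtype the count of lower enzymes was 6 to 9 under 19 alternatives. It was 6 when probe sets with suffix _a, _s or _x were used only for genes that have no other. There Pfkl turned to 0.0907 (0.044 in Bmp15-/- against wildtype and 0.0467 in DM against Bmp15-/-). Aldoa, Tpi1 and Pgam1 kept suffixed probe sets in that setting, and Aldoc was not tested, since its only probe set without a suffix was dim. The median change in DM against wildtype was -1.16 with the mean of all probe sets and -1.14 with suffixed probe sets only where needed. It was -1.21 under median and interquartile scaling, and -1.59 to -1.44 when 1 array was left out. With the Gapdh covariate it was -1.82, a fit that cannot tell RNA quality from genotype. In Bmp15-/- against wildtype the count was 4 under median and interquartile scaling, where Pgk1 was at 0.07, 4 to 5 when 1 array was left out, 1 when wildtype arrays 2 and 3 were left out and 1 without wildtype array 2 and Bmp15-/- array 2. Its median was -0.46 with suffixed probe sets only where needed, -0.34 under that scaling, -0.81 with the covariate and -0.71 to -0.60 with 1 array left out. In DM against Bmp15-/- the count was 3 when only these genotypes were fitted, 3 to 8 with 1 array left out and 1 without wildtype array 2 and Bmp15-/- array 2. Its median was -0.66 with the mean of all probe sets, -0.98 with the covariate and -0.93 to -0.60 with 1 array left out. With 1 array left out, the isoform differences between DM and wildtype ran from -2.13 to -1.98 (Pfkp over Pfkm), -1.62 to -1.43 (Pfkl over Pfkm), -0.71 to -0.36 (Pfkp over Pfkl) and -1.57 to -1.12 (Aldoc over Aldoa). The Pfkp over Pfkl difference of -0.41 lost its call with the mean of all probe sets and with the mean of those that pass the filter, and the Aldoc over Aldoa difference of -0.34 with the mean of all probe sets. The cause of these changes was not tested. Replicate numbers pair these arrays weakly at most. With them as a replicate block, the counts were 8, 7 and 8, and 3587, 1084 and 360 genes were called in all.

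Over all genes, 3780 were called in DM against wildtype, 1219 in Bmp15-/- against wildtype and 437 in DM against Bmp15-/-. Fitting only 2 genotypes gave 1894 in Bmp15-/- against wildtype and 117 in DM against Bmp15-/-, the covariate gave 875 and 693 in DM and Bmp15-/- against wildtype, leaving out 1 array gave down to 445 in Bmp15-/- against wildtype and 105 to 922 in DM against Bmp15-/-, using wildtype array 1 alone, with the spread taken from the mutant arrays, gave 812 and 59 in DM and Bmp15-/- against wildtype, and leaving out both arrays 2 gave 2211, 166 and 11 in the 3 comparisons. The share of calls that were lower, 64.6% in DM against wildtype and 63.7% in Bmp15-/- against wildtype, was 51.7% and 46.8% under quantile normalization, 38.5% and 25.2% under median and interquartile scaling and 82.7% and 79.5% with the covariate. In DM against Bmp15-/- it was 49.4%, and 82.2% with the covariate, 65.5% without DM array 2 and 72.7% without both arrays 2. The median of all genes in DM against wildtype was -0.17 with the covariate. Depth does not apply to arrays; dim probe sets, such as those of Aldoc in DM, limit the size of a fall.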
